A study of Zea mays with 38 samples.

Results

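The C4 cycle and carbon fixation genes described here are pdk1, pdlk1, rbcs1, rca1 and gpa1, and they were followed in seedling leaves of the maize (Zea mays) inbred line B73 under UV-B. The members are all cDNA features whose gene in the array's gene table carries one of these 5 symbols, directly or as a synonym in RefSeq. This rule found 9 of the 20014 features tested on the slides. The symbol pdk1 had 2 features (AI666262 and AW225169), pdlk1 had 1 (BQ295564), rbcs1 had 1 (AW352495), rca1 had 2 (AW455677 and AW566413) and gpa1 had 3 (AI649788, AW054541 and AW400122). All 9 passed the filter of at least 2 slides at every time, and none was left out.

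The study compared leaves irradiated with UV-B for 1, 2, 4, 8 or 12 h with untreated control leaves of the same time, a plan that kept the response apart from changes over the day. The samples form 10 groups, UV-B and control at each time, all of genotype B73 and all of total RNA. Each slide carried 1 UV-B and 1 control sample of the same time, in 2 dyes. There were 4 slides (a to d) at each time and 3 at 2 h (a, c and d), which made 19 slides and 38 samples. UV-B was in Cy5 on slides a and b and in Cy3 on slides c and d. Plants' age, the lamp and the dose, and the number of plants per sample, are not given in the sources used here.

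In a C4 leaf such as that of maize, carbon dioxide is first captured in mesophyll cells and is then released and fixed again by Rubisco in the bundle sheath around the veins. Pyruvate, orthophosphate dikinase (PPDK), the product of pdk1, regenerates the primary acceptor phosphoenolpyruvate in mesophyll chloroplasts. The gene rbcs1 encodes a small subunit of Rubisco and rca1 encodes Rubisco activase, which frees Rubisco of inhibitory sugar phosphates, and both act in the bundle sheath. The gene gpa1 encodes the A subunit of the chloroplast glyceraldehyde-3-phosphate dehydrogenase, the reductive step of the Calvin cycle, which operates in both cell types. The gene pdlk1 encodes a pyruvate dehydrogenase kinase, a mitochondrial regulator of pyruvate entry into respiration, and not an enzyme of the C4 cycle. RefSeq lists PDK1 as a synonym of pdlk1 too, but its gene is another one than that of pdk1, so pdlk1 is described apart from the mesophyll enzyme. RefSeq also lists a C4 and a cytosolic form of PPDK under the one gene pdk1, and which of them a feature bound was not determined.

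Whole leaves were used, so the contrast of mesophyll with bundle sheath rests on where these enzymes are known to act, not on separated cells. In such bulk samples, fewer cells of a type and less RNA per cell cannot be told apart. Of the 9 member features, 7 were brighter than the brightest of 7 foreign or transgene spots, whose mean log2 intensity was 16.76, as were 72.5% of all features tested. The pdlk1 feature lay barely above that level at 16.77, and the rca1 feature AW566413 (16.41) and the gpa1 feature AW054541 (16.28) lay below it. Of 8 features for kernel genes, which a leaf should lack, 6 were also above it, so this level does not separate leaf genes from the rest. The other mesophyll and bundle sheath markers fixed for the comparison matched no feature with a single gene symbol, apart from ssu1, a synonym of rbcs1.

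One technical split bears on the results. The spot brightness of 4 slides (2 h slide d and 4 h slides b, c and d) correlated among these 4 at r between 0.892 and 0.953 and with the other 15 slides at r between 0.637 and 0.833. The other 15 correlated with each other at r between 0.715 and 0.948. This split was noticed in the data, the labels name no slide batch, and 22.2% of features differed between the 2 sets in the control samples. Since the 4 slides were picked by their brightness, differences in level between the sets are built into the choice and do not test the split. Of the 4 slides, 3 were at 4 h, where slide a alone belonged to the other set. Each slide held both a UV-B and a control sample, so log2(UV/control) was formed within a slide, but levels over time crossed the split. The number of spots per channel was 18795 to 20158, and the median channel intensity was 138059 to 626914. Replicate number limits the precision, and since the labels leave unsaid whether replicate slides hold RNA of different plants, p-values measure the spread between slides, which may be technical.

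The first question was whether UV-B changed these genes when all 5 times were averaged. One feature each of pdk1, rbcs1, rca1 and gpa1 was lower under UV-B. These 4 of 9 features passed the threshold of 0.05 on the adjusted p, all of them lower, in a comparison in which 14.4% of all features passed and 5.68% passed as lower. Of the features that all slides measured, 5.14% were below 0 on 15 or more of the 19, as pdk1 AI666262, rbcs1, rca1 AW566413 and gpa1 AI649788 were. The median of the 9 features was -0.25 on the log2 scale, beside -0.02 for all features tested. Changes are fitted log2(UV/control) ± SE from limma, whose SE pools the spread of a feature over all times, and adjusted p-values are Benjamini-Hochberg values over all features tested.

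**Figure D1:**
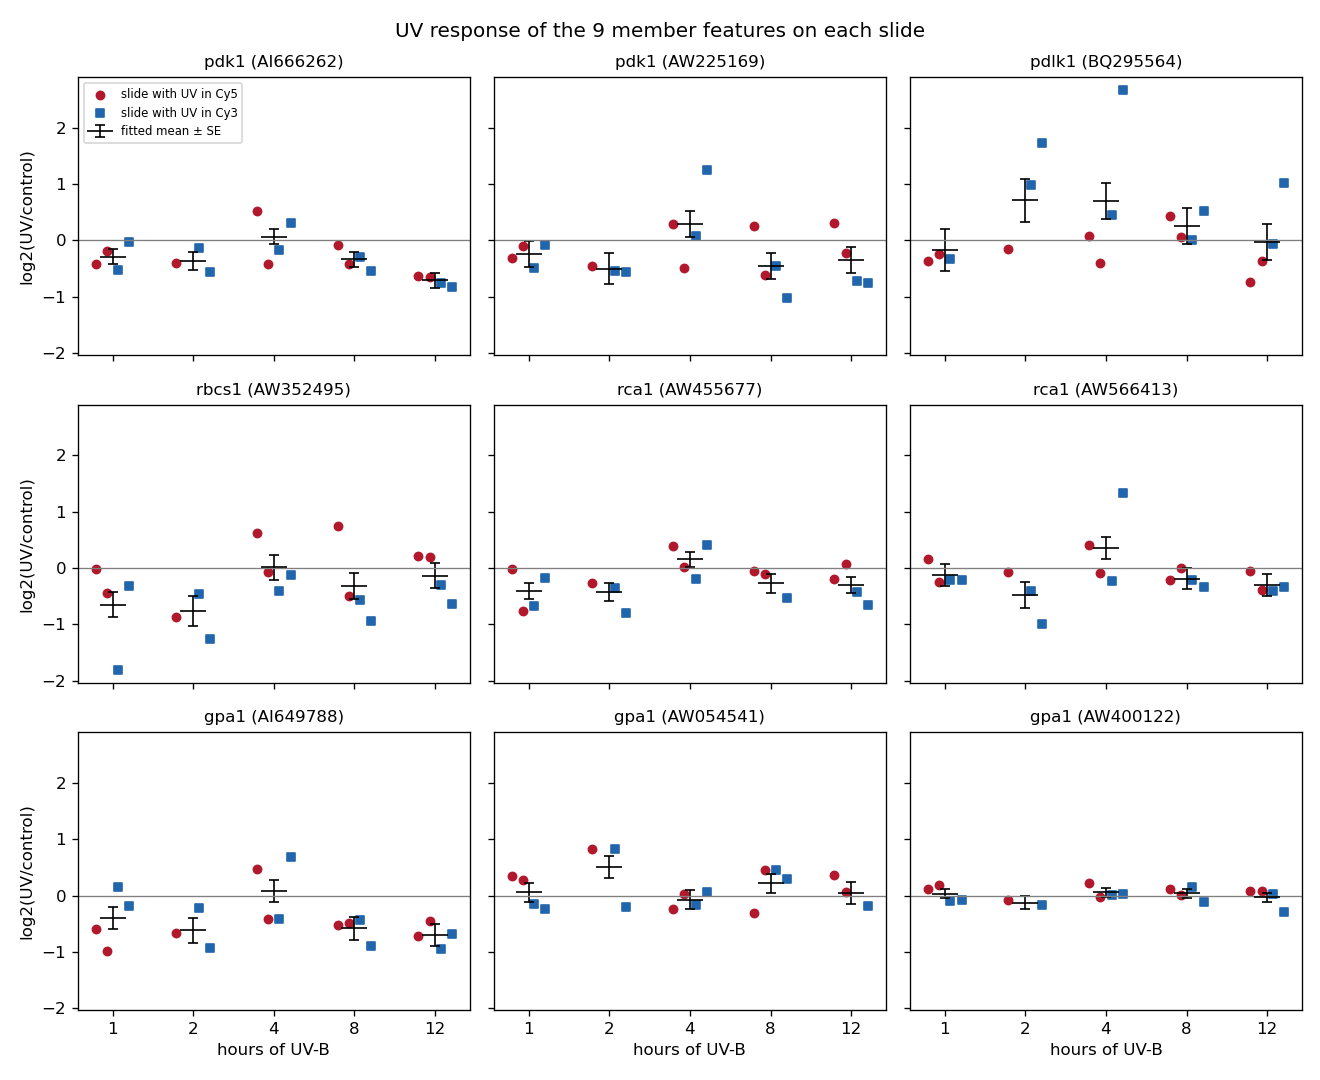
Each panel shows 1 of the 9 member features, with log2(UV/control) on the vertical axis and hours of UV-B on the horizontal axis. Circles are slides with UV-B in Cy5, squares are slides with UV-B in Cy3, and black bars are the fitted mean ± SE of each time. The pdk1 feature AI666262 lay below 0 on all slides except 2 of those at 4 h, and the gpa1 feature AW400122 stayed close to 0 on every slide that measured it.

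Of the mesophyll enzyme gene pdk1, the feature AI666262 was below 0 on more slides than any other member feature. On the slides of AI666262, log2(UV/control) was -0.41, -0.18, -0.52 and -0.03 at 1 h (slides a to d), and -0.41, -0.13 and -0.56 at 2 h. At 4 h it was 0.53, -0.42, -0.17 and 0.32, at 8 h -0.09, -0.42, -0.29 and -0.54, and at 12 h -0.63, -0.64, -0.75 and -0.82. The feature was thus below 0 on every slide of 4 of the times, and at 4 h the slides fell on both sides of 0. Of all features on all slides of a time, the share below 0 on every slide was 5.88% at 1 h, 17.7% at 2 h, 13.6% at 8 h and, for the last time, 12.5%. The mean over times was -0.32 ± 0.063 (n = 19 slides, adjusted p = 0.00285 by limma, lower on 17 slides), a level 1.25 times higher in control than in UV-B leaves.

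The second pdk1 feature, AW225169, was below 0 on all slides at 1 h (-0.49 to -0.08) and at 2 h (-0.57 to -0.46). The slides lay between -0.48 and 1.24 at 4 h, between -1.02 and 0.26 at 8 h, and between -0.76 and 0.32 at 12 h. Its mean over times was -0.25 ± 0.11 (n = 19, adjusted p = 0.132, lower on 14 slides) and did not pass. Across the 19 slides the 2 features of pdk1 had the same sign on 16 and correlated at r = 0.69. These points share slides, dyes and normalization, and the value is a description. Without the 4 h slides, AW225169 stood at -0.38 ± 0.085 over the other times (adjusted p = 0.00966 by limma). That setting was chosen after seeing the data. Its fitted value was above 0 only at 4 h, so leaving that time out lowers the mean by construction.

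The bundle sheath gene rbcs1 had the widest swings among the 4 features that passed. On slides a to d, log2(UV/control) of AW352495 was -0.03, -0.44, -1.81 and -0.32 at 1 h, and on slides a, c and d it was -0.87, -0.46 and -1.26 at 2 h. It was 0.62, -0.07, -0.40 and -0.12 at 4 h, 0.74, -0.50, -0.57 and -0.94 at 8 h, and 0.22, 0.20, -0.31 and -0.65 at 12 h. At 12 h both slides with UV-B in Cy5 were above 0 and both with UV-B in Cy3 were below it. Its dye term was 0.31 ± 0.11 (adjusted p = 0.0443 by limma), higher where UV-B was in Cy5. The mean over times, which carries that term, was -0.37 ± 0.11 (n = 19, adjusted p = 0.0284 by limma, lower on 15 slides). Without the dye term it was -0.39 ± 0.13 (adjusted p = 0.0634 by limma), and it lost its call without any 1 of 6 single slides (1 h b, 2 h a, 2 h d, 4 h b, 8 h b or 8 h d), with values from -0.36 to -0.32.

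Rubisco activase, rca1, showed a smaller and steadier shift. The slides of its bright feature AW455677 lay between -0.76 and -0.02 at 1 h, -0.80 and -0.26 at 2 h, -0.20 and 0.40 at 4 h, -0.53 and -0.05 at 8 h, and -0.66 and 0.07 at 12 h. No slide rose above 0 at 1, 2 or 8 h, and 1 did at 12 h. The mean over times was -0.25 ± 0.067 (n = 18, adjusted p = 0.0204 by limma, lower on 14 slides), and slide c at 8 h did not measure it. The dimmer feature AW566413 had a mean of -0.15 ± 0.089 (n = 19, adjusted p = 0.298, lower on 16 slides) and did not pass. Both had the same sign on 15 of 18 slides and correlated at r = 0.74, again over slides that share their processing. Without the 4 h slides AW566413 stood at -0.27 ± 0.060 (adjusted p = 0.00999 by limma), a setting chosen after seeing the data. Its fitted value was above 0 only at 4 h. On slide d at 4 h AW566413 was 1.32, its highest value. Without that slide alone its mean passed at -0.22 ± 0.056 (adjusted p = 0.0192 by limma). Leaving out the highest values lowers a mean by construction.

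The Calvin cycle gene gpa1 held both the largest fall in the mean over times and the feature with the smallest SD over slides among the 9. Feature AI649788 was -0.59, -0.98, 0.15 and -0.18 at 1 h, and -0.66, -0.21 and -0.92 at 2 h. It was 0.48, -0.42, -0.41 and 0.68 at 4 h, -0.53, -0.48, -0.43 and -0.90 at 8 h, and -0.71, -0.45, -0.95 and -0.69 at 12 h. It was below 0 on all slides at 2, 8 and 12 h, and its mean over times was -0.45 ± 0.090 (n = 19, adjusted p = 0.00389 by limma, lower on 16 slides).

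The feature AW400122 carries the same gene and moved little. Its log2(UV/control) ran from -0.30 to 0.22 over 18 slides, and its mean was 0.00 ± 0.039 (adjusted p = 0.957). The SD of its values over slides, 0.133, was at the 1.36 percentile of all features tested, while its spot brightness lay between the 93.6 and 99.7 percentile of a slide. On the 18 slides that measured both, AI649788 was lower than AW400122 on 15, by 0.45 on average (SD 0.46), with the same sign on 8 and r = 0.22. The dim feature AW054541 had a mean of 0.15 ± 0.081 (n = 18, adjusted p = 0.231, higher on 11 slides). The fall of gpa1 is therefore that of 1 of its 3 features.

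The kinase gene pdlk1 had values on both sides of 0. Its feature BQ295564 was -0.37, -0.25 and -0.33 at 1 h on slides a to c, and slide d did not measure it. It was -0.14, 0.98 and 1.73 at 2 h, 0.09, -0.39, 0.44 and 2.67 at 4 h, 0.43, 0.06, 0.02 and 0.53 at 8 h, and -0.74, -0.36, -0.05 and 1.03 at 12 h. The slides spread widely, with an SD of 0.85, and the values on slide d were the highest at 2, 4, 8 and 12 h. The mean over times was 0.29 ± 0.15 (n = 18, adjusted p = 0.231) and did not pass.

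**Figure D2:**
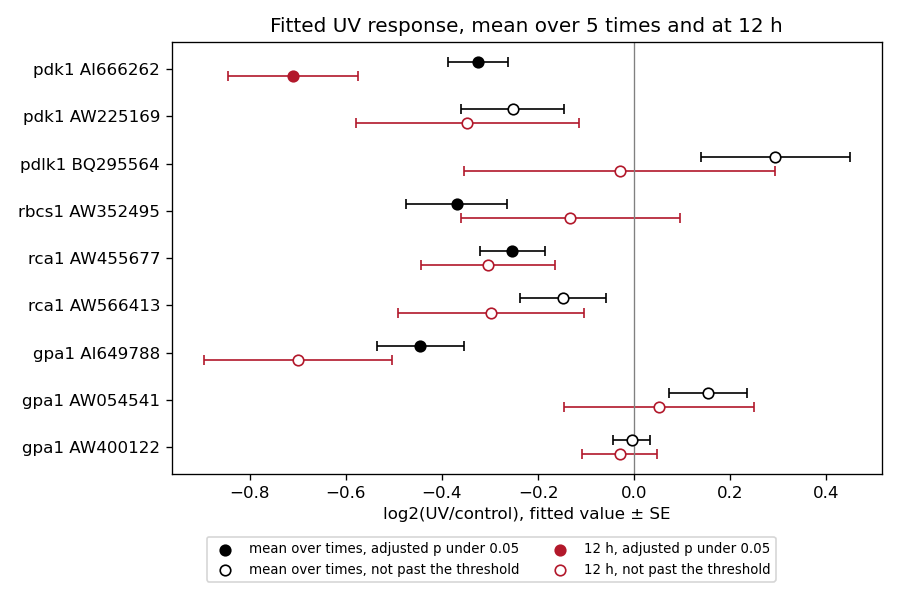
Fitted log2(UV/control) ± SE of the 9 member features, averaged over the 5 times (black) and at 12 h (red). Filled points passed the adjusted p of 0.05, and open points did not. The features that passed lie left of 0, and pdlk1 with 2 of the gpa1 features lie at or right of 0 in the mean.

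The 4 calls of the mean depended on the slides that stand apart in brightness and on the pairing by slide. Calls over all features, 2881 in the main fit, also fell steeply in both settings, so the losses are not particular to the members. Without those 4 slides none of the 9 features passed, and 4 h was then left with slide a alone, where all 4 of these features were above 0. The means were then -0.22 ± 0.064 for pdk1 (adjusted p = 0.0824 by limma), -0.29 ± 0.15 for rbcs1 (0.323), -0.21 ± 0.084 for rca1 (0.19) and -0.31 ± 0.097 for gpa1 (0.0982). Leaving out the 4 h slides was chosen after seeing the data, and 4 h was the only time at which most members were above 0. A lower mean without these slides follows from that choice and adds no support. Without all 4 h slides, the mean over the other 4 times passed for 6 features, all lower, beside a background of 5.59% called as lower. It stood at -0.42 ± 0.055 for pdk1 AI666262 (adjusted p = 0.000323 by limma), -0.46 ± 0.13 for rbcs1 (0.0276), -0.35 ± 0.074 for rca1 AW455677 (0.00738) and -0.58 ± 0.087 for gpa1 AI649788 (0.000777). When UV-B and control samples were fitted as unpaired, the mean values did not change and 0 of 9 passed, beside 132 of all 20014 features.

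The second question was when these genes differed. At 12 h the mesophyll gene pdk1 was lower in UV-B leaves, and it was the only one of the 9 features that passed at any single time. The background at 12 h was 4.33% of features called and 2.01% called as lower. The control levels of AI666262 on the 4 slides were 20.01 to 20.35 (normalized log2 intensity) and the UV-B levels 19.19 to 19.72. These groups did not overlap, and the share of all features without such overlap was not counted. The change was -0.71 ± 0.14 (n = 4, lower on 4 slides, adjusted p = 0.00925 by limma), or 1.64 times higher in control leaves, and the SD of the 4 slides was 0.093. The call was lost without slide c (-0.70 ± 0.16, adjusted p = 0.0626 by limma), without slide d (-0.68 ± 0.16, 0.0564) and with the 12 h slides fitted alone (adjusted p = 0.0509), although the value hardly moved.

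The gpa1 feature AI649788 stood at -0.70 ± 0.20 at 12 h (n = 4, adjusted p = 0.0545 by limma) and at -0.58 ± 0.20 at 8 h (n = 4, adjusted p = 0.0793), lower on every slide of both times, and did not pass. It did pass at 12 h with 9 of 31 alternatives that kept the pairing, such as without the 4 h slides. At 12 h rbcs1 stood at -0.13 ± 0.23 (adjusted p = 0.833), rca1 at -0.30 ± 0.14 (AW455677, 0.254) and -0.30 ± 0.19 (AW566413, 0.435), and the second pdk1 feature at -0.35 ± 0.23 (0.452). Values below 0 were seen for 8 of the 9 features at 12 h, and the exception was the gpa1 feature AW054541 at 0.05.

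At 1 h, 7 of the 9 features were below 0 and 0 passed, and the background was 0% called. The largest value was that of rbcs1, -0.65 ± 0.23 (adjusted p = 0.574), and 2 features had an unadjusted p under 0.05, as had 1566 of all features. At 2 h, 7 were again below 0 and 0 passed, beside a background of 4.15%. An unadjusted p under 0.05 was found for 5 of the 9 and for 4039 of all 20014 features. There rbcs1 stood at -0.76 ± 0.27 (n = 3, adjusted p = 0.113) and gpa1 AI649788 at -0.62 ± 0.23 (n = 3, adjusted p = 0.13). Over all 9 features, the median at 2 h was -0.43, the lowest of the 5 times, beside -0.01 for all features tested.

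The 4 h slides stood apart from the other times in sign. Of the 9 features, 8 were above 0 and 1 was below it, the gpa1 feature AW054541 at -0.08 ± 0.17. None passed, and the background was 0% called. Only 1 feature, pdlk1 (0.70 ± 0.32), had an unadjusted p under 0.05, beside 968 of all features. The values at 4 h were 0.07 ± 0.14 for pdk1 AI666262, 0.01 ± 0.23 for rbcs1, 0.15 ± 0.14 for rca1 AW455677 and 0.08 ± 0.20 for gpa1 AI649788. Slides a and d gave most of the positive values and slides b and c most of the negative ones. At 8 h, 6 features were below 0 and 0 passed, beside a background of 7.54%. An unadjusted p under 0.05 was found for 2 of the 9 and for 4683 of all 20014 features. Beyond gpa1, pdk1 AI666262 stood there at -0.33 ± 0.14 (adjusted p = 0.142) and rbcs1 at -0.32 ± 0.23 (0.45).

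Whether the response itself differed between times was tested with a moderated F-test against the response at 1 h. It called 0 of the 9 features and 0.155% of all features. The smallest adjusted p among the members was 0.222, for pdk1 AI666262 (unadjusted p = 0.0175), and it was the only member with an unadjusted p under 0.05. This test did not set 4 h against the other times, so a difference of 4 h from them was not tested by itself.

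The third question was whether the mesophyll gene and the bundle sheath genes responded alike. The difference between the log ratios of pdk1 AI666262 and of another gene was formed on every slide and is given as a description. For pdk1 minus rbcs1 it averaged 0.36 at 1 h (SD 0.69, n = 4), 0.50 at 2 h (SD 0.18, n = 3), 0.06 at 4 h (SD 0.35), -0.02 at 8 h (SD 0.56) and -0.58 at 12 h (SD 0.33, n = 4). All 3 slides at 2 h were above 0, where rbcs1 was the lower of the pair, and all 4 slides at 12 h were below 0, where pdk1 was the lower. At 12 h the slides with UV-B in Cy5 lay at -0.84 and -0.85 and those with Cy3 at -0.44 and -0.18.

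Set against rca1 AW455677, pdk1 averaged 0.12 at 1 h (SD 0.39), 0.11 at 2 h (SD 0.22), -0.09 at 4 h (SD 0.25), -0.12 at 8 h (SD 0.17, n = 3) and -0.41 at 12 h (SD 0.23). Here too pdk1 was the lower on all 4 slides at 12 h. Against gpa1 AI649788, which acts in both cell types, pdk1 averaged -0.01 at 12 h (SD 0.18), with 2 slides on each side of 0. Over all slides the averages were 0.04 for rbcs1 (SD 0.56, n = 19), -0.08 for rca1 (SD 0.31, n = 18) and 0.11 for gpa1 (SD 0.31, n = 19), each smaller than its SD. These differences are those of single features. At 12 h the other pdk1 feature, AW225169, stood at -0.35, beside both rca1 features at -0.30, and on slide a it was 0.32 against 0.22 for rbcs1. The other gpa1 features stood at -0.03 (AW400122) and 0.05 (AW054541), above rbcs1 at -0.13, so the order does not hold over all features of these genes.

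**Figure D3:**
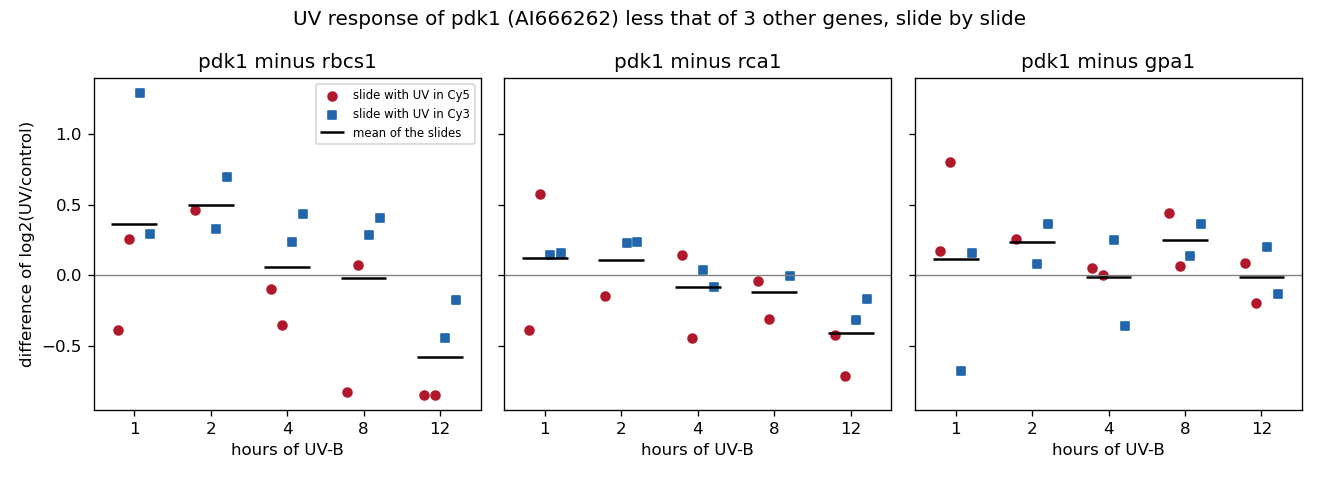
Log2(UV/control) of pdk1 (AI666262) minus that of rbcs1 (AW352495), rca1 (AW455677) and gpa1 (AI649788) on each slide, by hours of UV-B. Circles have UV-B in Cy5, squares have it in Cy3, and bars are the mean of the slides. Differences from rbcs1 and from rca1 are below 0 on all 4 slides at 12 h, and the difference from gpa1 has a mean of -0.01 there.

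From slide to slide, the log ratios of most member features went up and down together. Over 17 to 19 slides, pdk1 AI666262 correlated with gpa1 AI649788 at r = 0.73, with rca1 AW455677 at r = 0.61 and with rbcs1 at r = 0.42. The bundle sheath pair rbcs1 and rca1 AW455677 correlated at r = 0.73, and rbcs1 with gpa1 AI649788 at r = 0.18. The feature of pdlk1 correlated with pdk1 AI666262 and gpa1 AI649788 at r = 0.33 each, with pdk1 AW225169 at r = 0.31, with rca1 at r = 0.26 (AW566413) and 0.04 (AW455677), and with rbcs1 at r = -0.15. All of these points share slide, dye orientation and normalization. Slides of opposite dye orientation correlated over all features at a median r of -0.26, -0.29 and -0.26 at 1, 2 and 4 h and of 0.23 and 0.14 at 8 and 12 h.

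The fourth question was how the genes ran over time in the control leaves, where no UV-B was given. The moderated F-test of the separate-channel fit covered the 5 member features measured on all slides and called 1 of them, the pdk1 feature AW225169 (adjusted p = 0.0195 by limma), against a background of 13.8% called. Its control level was 21.57 to 22.38 at 1 h, 17.96 to 22.51 at 2 h, 16.32 to 20.84 at 4 h, 19.43 to 22.24 at 8 h and 19.55 to 20.50 at 12 h. The low values were those of the slides that stand apart, which lay at 16.32 to 17.96 against 19.43 to 22.51 on the other 15. The change from 1 h to 4 h, a contrast that called 13.7% of features, was -4.02 ± 0.85 (adjusted p = 0.00934 by limma), and with the slide split as a block in a fit of the control samples it was -1.20 ± 0.62 (adjusted p = 0.564). In a fit of the control samples alone, with all slides, the F-test gave AW225169 an adjusted p of 0.0939 by limma. The change of model thus ended the call with no slide left out. Without the 4 slides, which left 1 slide at 4 h, that fit gave a change from 1 h to 4 h of -1.40. The other pdk1 feature, AI666262, had a control level of 20.06 to 21.03 on these 4 slides (median 20.53) and of 19.81 to 20.91 on the other 15 (median 20.35), ranges that overlap. With time in the fit, its level was 0.95 ± 0.22 higher on the 4 slides (adjusted p = 0.00694 by limma), and that of AW225169 stood at -3.77 ± 0.57 (adjusted p = 0.000218). The 4 slides were picked by spot brightness, so these values describe the split and do not test it.

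With the slide split as a block, 4 of the 9 member features differed between 12 h and 1 h, beside a background of 4.77% called. In control leaves at 12 h the rca1 feature AW455677 was higher by 0.94 ± 0.23 (adjusted p = 0.0403 by limma), and its level was 20.90 to 21.32 at 1 h and 21.77 to 22.14 at 12 h. The dimmer rca1 feature AW566413 stood at 0.00 ± 0.31 (adjusted p = 0.996). The gpa1 feature AI649788 was higher by 1.08 ± 0.26 (adjusted p = 0.0322), whose level was between 19.57 and 20.17 at 1 h and between 20.67 and 21.53 at 12 h. The flat gpa1 feature AW400122 rose too, by 0.62 ± 0.16 (adjusted p = 0.0403 by limma), with levels between 21.14 and 21.37 at 1 h and between 21.65 and 22.00 at 12 h. In these 3 features the groups at 1 h and 12 h did not overlap, and the share of all features without such overlap was not counted. The pdk1 feature AW225169 was lower, at -1.97 ± 0.45 (adjusted p = 0.0275), while the other pdk1 feature stood at -0.13 ± 0.18 (adjusted p = 0.699).

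This block was chosen after seeing the data, and the F-test over all times with it called 0 of 9 features, with a smallest adjusted p of 0.0649, beside a background of 1.58%. Control samples fitted alone without it also gave 0 of 9, beside 1.28% of features, and 12 h changes of rca1 AW455677 with an adjusted p of 0.0641 and of gpa1 AI649788 with 0.163. Of the 12 h changes, those of rca1 AW455677 (adjusted p = 0.0347) and gpa1 AI649788 (0.0431) also passed without the 4 slides, where 3.42% of features did, and those of gpa1 AW400122 (0.065) and pdk1 AW225169 (0.0512) did not. Without those slides the pdlk1 feature passed as well, at -1.78 ± 0.40 (adjusted p = 0.0451 by limma), and with the block it stood at -1.77 ± 0.47 (0.0504). In the separate-channel fit without the block, the 12 h change of gpa1 AI649788 was 1.05 ± 0.39 (adjusted p = 0.125) and did not pass, and 4.2% of features passed. For rbcs1 no change over time passed in any of these fits. Its control level was 18.67 on slide c at 1 h against 20.44 to 20.74 on the other slides of that time, and 22.74 on slide c at 2 h.

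**Figure D4:**
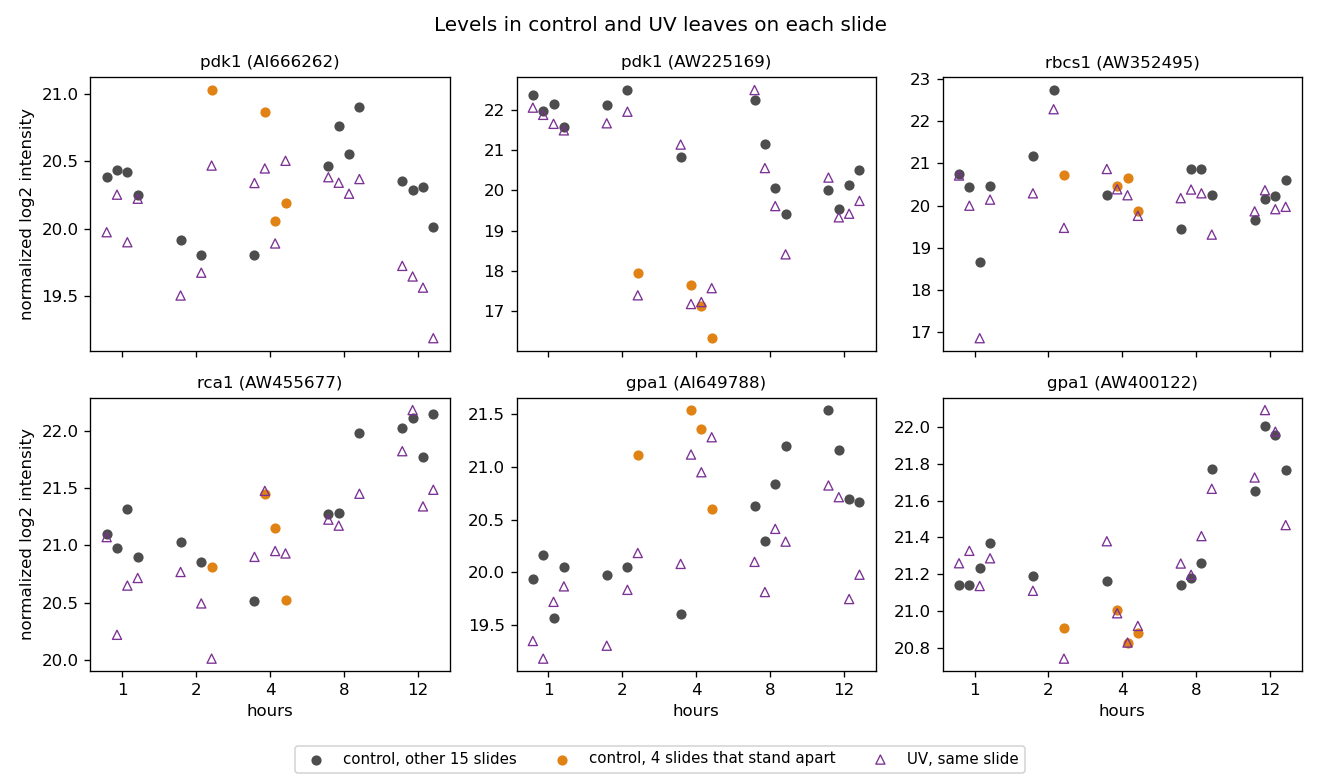
Normalized log2 intensity of 6 member features in control leaves (filled circles, orange on the 4 slides that stand apart in brightness) and in UV-B leaves of the same slides (triangles), by hours. In AW225169 the orange points lie at 16.32 to 17.96, below the control points of the other 15 slides, and rca1 AW455677 and both gpa1 features are higher in controls at 12 h than at 1 h.

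Other genes of the same pathways were taken from lists. Of the list for the C4 cycle, 10 features of 5 genes were measured. In the 60 results over times and the mean, 0 passed and 8 had an unadjusted p under 0.05. Per comparison, 968 (4 h) to 5677 (mean) of all 20014 features had one. The 5 genes were bsd2 (a chaperone of Rubisco assembly), the malic enzyme gene me2, pdrp1 (the regulatory protein that switches PPDK on and off), pep7 (a phosphoenolpyruvate carboxylase) and ppck1 (its kinase). They were matched by symbol, and whether each form acts in the C4 cycle was not determined. No feature with a single gene symbol carried pepc, ppc1, pep1, mdh6, ca1 or me3. The regulator pdrp1 stood at -0.02 ± 0.038 in the mean (adjusted p = 0.775) and at 0.09 ± 0.082 at 12 h (adjusted p = 0.636), the time at which pdk1 was lower. The pep7 feature AI714523 stood at -0.18 ± 0.069 in the mean (adjusted p = 0.086). The median of the 10 features in the mean was -0.07.

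Of the list for the Calvin cycle, which was matched by gene symbol, 3 features of 2 genes were measured. Both gpb1 features stood below 0 in the mean and the ald1 feature above it. Whether ald1 encodes the chloroplast or the cytosolic aldolase was not determined. The gene gpb1 encodes the B subunit that pairs with the product of gpa1, and its feature AW600632 fell by 0.14 ± 0.040 on the log2 scale in the mean (n = 18, adjusted p = 0.0341 by limma, lower on 14 slides). This call was lost in 16 of 29 alternatives that kept the pairing. The other gpb1 feature, AW330641, stood at -0.05 ± 0.042 (adjusted p = 0.43). The aldolase gene ald1 (BQ621241) rose by 0.34 ± 0.071 in the mean (n = 18, adjusted p = 0.00569, higher on 16 slides) and by 0.65 ± 0.15 at 12 h (n = 4, adjusted p = 0.0249, 0.23 to 1.20 over slides). The 12 h call of ald1 was lost without slide a (0.58 ± 0.18, adjusted p = 0.141) without slide c (0.46 ± 0.15, adjusted p = 0.186), and with median centring (adjusted p = 0.099). Without the 4 slides that stand apart, both the mean (0.36 ± 0.11, adjusted p = 0.0875 by limma) and the 12 h value (adjusted p = 0.0614) missed the threshold.

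The cytosolic glyceraldehyde-3-phosphate dehydrogenases, listed as gpc1, gpc2, gpc3, gpc4 and gpn1, had 8 features. Of these, 1 passed, the gpc1 feature AI396010, which rose by 0.32 ± 0.067 in the mean (n = 19, adjusted p = 0.00523 by limma, higher on 16 slides), beside 14.4% of all features called. Without the 4 slides that stand apart it stood at 0.22 ± 0.081 (adjusted p = 0.152 by limma). The second gpc1 feature, AI881961, stood at -0.05 ± 0.064 (adjusted p = 0.619). Around pdlk1, the 5 features of pdh2 (a subunit of pyruvate dehydrogenase) and pdlk2 (the related kinase) gave 0 calls in 30 results. An unadjusted p under 0.05 was found in 6 of these. Per comparison, 968 (4 h) to 5677 (mean) of all 20014 features had one.

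Light-harvesting genes, listed because they belong to the same photosynthetic apparatus, had 6 features, of which 3 fell in the mean and 0 rose, beside 14.4% of all features called and 5.68% called as lower. All 3 of these mean calls were lost without the 4 slides that stand apart, with adjusted p from 0.0576 to 0.119 by limma. Lhcb5-2 changed by -0.57 ± 0.16 at 8 h (adjusted p = 0.0428 by limma) and by -0.87 ± 0.16 at 12 h (adjusted p = 0.00845). The lhcb5 feature AW927758 changed by -0.56 ± 0.13 at 8 h (adjusted p = 0.0246), by -0.64 ± 0.13 at 12 h (adjusted p = 0.018) and by -0.37 ± 0.067 in the mean (adjusted p = 0.00278). The Cab-m7 feature AI967091 changed by -0.21 ± 0.057 in the mean (adjusted p = 0.0205). All slides of Lhcb5-2 and of AW927758 were below 0 at 8 and 12 h. The other lhcb5 feature, AI612478, did not pass and stood at -0.76 at 8 h, below 0 on 3 of 3 slides, and at 0.46 at 12 h, above 0 on 4 of 4. The Cab-m7 feature AW330670 did not pass either and stood at 0.18 at both 8 h (above 0 on 4 of 4 slides) and 12 h (on 3 of 4). Leaving out 1 slide of that time ended the 8 h calls for 3 of the 4 slides (a, b and d), and the 12 h calls for b and d, and for lhcb5 also c, with adjusted p up to 0.213.

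Of the 8 kernel features, sh2 AI677223 rose in the mean by 0.21 ± 0.041 (adjusted p = 0.00281 by limma), and the glb1 features AW261338 (-0.16 ± 0.050, adjusted p = 0.0421) and AW267422 (-0.33 ± 0.10, adjusted p = 0.0445) fell. The calls of these 2 glb1 features held in 11 of 26 and 11 of 29 alternatives that kept the pairing, and all 3 of these mean calls were lost without the 4 slides that stand apart. The remaining glb1 feature, AW066754, rose at 8 h by 0.75 ± 0.18 (adjusted p = 0.0203) and stood at -0.16 ± 0.22 with median centring. The glb1 features AW261338 and AW066754 are dimmer than the brightest foreign spot. The size of these changes is close to that of the members' changes in the mean, and their part in the members' results was not tested.

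The features whose slide-by-slide response was most like that of each gene were sought among 844 features of other informatively named genes, by Pearson r of log2(UV/control) less the dye term over 19 slides. The brightest feature of each gene that all slides measured stood for it, which left out pdlk1 and gave rca1 its dimmer feature AW566413. For pdk1 AW225169 they were ole1 (r = 0.81), his1 (0.76) and dxs2 (0.71). For rbcs1 they were frk2 (0.72), mir3 (0.68) and dxs2 (0.67), for rca1 homeobox2 (0.83), cat2 (0.78) and ole1 (0.75), and for gpa1 AI649788 sdg110 (0.77), prh1 (0.74) and abcf1 (0.72). Each pair shares its slides, and the highest of 844 values is high by the search alone.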

How the data were processed

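The deposited per-sample files hold 1 linear intensity per spot and channel. Scans were gridded with TIGR Spotfinder, per the labels, and the scanner and any background subtraction are not given in the sources used here. The deposited series matrix holds the authors' processed score in 19818 rows, of unknown scale, centring and background treatment. Its column medians were 12.24 to 12.35, its log ratios correlated with those of the intensities at r from 0.690 to 0.845 per slide, and it served as an alternative.

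Intensities were corrected with normexp (offset 50) and normalized within each slide by loess (span 0.3) in limma 3.58.1 (R 4.3.3), with 120 control or special spots of 20231 positions left out. Of 20076 features, 20014 had at least 2 slides at every time and were tested. The limma model for log2(UV/control) had 1 mean per time, a dye term, all 19 slides and 13 residual degrees of freedom. A separate-channel fit compared control samples over time on the 14229 features that all slides measured, with an intraspot correlation of 0.786, and the 4 member features outside it were fitted with the control samples alone. Levels are normalized log2 intensities on which features are not compared with each other. The scripts were tested on simulated data.

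Pairing is by slide. Deviations from the group means correlated between both samples of a slide at r from 0.656 to 0.924, and reading both from the same spots can give this alone. Titles were used where another label gave a different slide letter, and slide b at 2 h was not analysed here.

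Names came from the array's gene table (1334 probes, 1331 with a single symbol and 3 with several), updated through RefSeq (Zm-B73-REFERENCE-NAM-5.0), which held 1283 of them, and 1174 had an informative name. No genome build is named in the files, so no coordinates are given. The members and lists were chosen with earlier results of these data known. Every member feature is described, and of each list the features that passed at any time or in the mean, at most 4 per list and comparison. For each gene, the 3 most similar features are named.

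Alternatives were no background correction, median centring, loess within blocks, scaling between slides, no dye term, slide weights, only features on all slides, only bright features, matrix values, each time alone, unpaired samples, quantile normalization (controls), and leaving out each slide, the 4 slides that stand apart or the 4 h slides. The last 2 and the slide split as a block were chosen after seeing the data.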

Additional observations from a re-analysis of the deposited data

Results flagged for a closer look

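Of 66 sets of 4 slides examined for 1 slide far from the rest, 2 were marked, and chance marks about 1 in 20 such sets. The control level of rbcs1 on slide c at 1 h was 18.67, against 20.44 to 20.74 on the other slides of that time. On that slide the log ratio of rbcs1 was also its lowest, at -1.81. The log ratio of the dim rca1 feature AW566413 on slide a at 1 h was 0.17, against -0.25 to -0.21 on the others.

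The pdlk1 feature was below 0 on all 3 slides that measured it at 1 h and above 0 on all 4 at 8 h, a difference of 0.57 in the mean log ratio of the slides. This difference was not tested by itself, and the test over all times gave pdlk1 an adjusted p of 0.65 (limma).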

How the results depend on the processing

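No member's call changed its direction under any alternative, and among the other genes glb1 AW066754 at 8 h turned to -0.161 with median centring, where the cause was not tested. The count of members that passed in the mean, 4, became 0 with no replicate block, that is without the pairing by slide, and 0 without the 4 slides that stand apart. At 12 h the count of 1 became 2 with no background correction, with slide weights, with bright features only, without the 4 slides or without the 4 h slides, and 0 with each time alone or no replicate block. Leaving out 1 slide gave 0 to 2. At 8 h the count of 0 became 1 with loess within blocks, slide weights or without the 4 slides, and 2 with matrix values. At 2 h leaving out 1 slide gave 0 to 1, the 1 being gpa1 AW054541 without slide d (0.82 ± 0.20). In controls the count of 1, among 5 features tested, became 2 of 9 with matrix values. It became 0 of 9 with control samples alone or with the slide split as a block. Leaving out 1 slide gave 0 to 2, at the intraspot correlation of the full fit, and the fits that gave 2 tested 6 features. These counts rest on different numbers of features, so a higher count is not an effect of processing alone. Over all features, the 867 calls at 12 h became 29 with no replicate block, 71 with that time alone and 1857 with slide weights, and the 2881 in the mean became 132 with no replicate block and 670 without the 4 slides. The mean calls of pdk1 AI666262 and gpa1 AI649788 held in 29 of 30 alternatives that kept the pairing, that of rca1 AW455677 in 28 of 29 and that of rbcs1 in 21 of 30. In each of these 4, the alternative without the 4 slides was among those that ended the call. Dim spots limit what AW566413, AW054541 and pdlk1 can show.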
